A study of Homo sapiens with 6 samples.

Results

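The 48 genes described here encode heat shock proteins, their helper proteins and the factors that switch them on, measured in OVCAR8 cells, a long-established line from a human ovarian carcinoma, with and without the peptide hormone relaxin-2 (RLN2). They were taken by symbol from the authors' merged count table, which held all 48, out of 58037 gene IDs in the series. The relaxin-2 group had 50 ng/mL of recombinant human RLN2 for 8 hours (3 libraries, replicates 1, 2 and 3), and its control group was left untreated for the same time (3 libraries, replicates 2, 3 and 4). All cells had been plated at 300000 per well with 10% serum and kept without serum for the 16 hours before treatment, so both groups were serum-starved cells of 1 line. Whether the triplicates came from separate cultures is not stated, so any p-value here reflects variation among these libraries, and that variation may be technical. The small heat shock protein gene HSPB1 leads the list because of its value in this very comparison, and the other genes were listed by function with results of these data known. Relaxin-2 values of the members are therefore a description, and where the test over all genes is quoted, its result for a member is no independent evidence.

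Chaperones bind proteins that are unfolded or not yet folded. Small heat shock proteins hold them without ATP, the HSP70s fold them in ATP-driven cycles started by J proteins and reset by HSP110 and BAG exchange factors, and HSP90 finishes kinases, hormone receptors and other clients with a set of cochaperones. The ring-shaped chaperonins, CCT in the cytosol and HSPD1 with its lid HSPE1 in mitochondria, enclose their clients. Under heat or other protein stress the factor HSF1 leaves its complex with chaperones, binds heat shock elements in DNA and raises many of these genes, and tumour cells often keep that program active. The list is not wholly cytosolic: HSPA9, TRAP1, HSPD1, HSPE1 and DNAJA3 work in mitochondria, HSPA13 in membrane compartments, and HSPB11 is a component of intraflagellar transport.

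The heat shock element is the site through which many of these genes respond to stress, and the relaxin receptor is known to signal through cAMP. Short matches to both kinds of element were therefore read from RefSeq promoter windows (GRCh38.p14). The 250 bases before each annotated start were searched on both strands. RefSeq windows matched 41 of the 48 members; HSPB2, HSPB11, CRYAB, HSPA14, STUB1, FKBP4 and HSF1 were not matched. A heat shock element was searched as 3 alternating units (GAANNTTCNNGAA or TTCNNGAANNTTC) and, more loosely, as 2 (GAANNTTC or TTCNNGAA), so that every 3-unit match also holds a 2-unit match. The matches below stand in capitals, first the 2-unit matches of HSPB1 and of the stress-inducible HSP70 genes, then the 3-unit matches, then the cAMP response element TGACGTCA.

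HSPB1 at chr7:76302481-76302508, plus strand: cttaacgagaGAAGGTTCcagatgaggg
HSPA1A at chr6:31815427-31815454, plus strand: gaaaaccctgGAATATTCccgacctggc
HSPA1B at chr6:31827623-31827650, plus strand: gaaacccctgGAATATTCccgacctggc
HSPA8 at chr11:123062346-123062374, minus strand: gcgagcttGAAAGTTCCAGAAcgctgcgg
HSPA8 at chr11:123062171-123062199, minus strand: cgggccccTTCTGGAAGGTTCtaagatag
DNAJB6 at chr7:157336865-157336893, plus strand: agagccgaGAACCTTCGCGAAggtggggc
HSP90AA1 at chr14:102087112-102087140, minus strand: gagggttcTTCCGGAAGGTTCgggaggct
HSP90AB1 at chr6:44247770-44247798, plus strand: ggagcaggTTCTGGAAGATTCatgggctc
HSP90AB1 at chr6:44247823-44247851, plus strand: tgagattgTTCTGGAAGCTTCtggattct
HSPD1 at chr2:197500063-197500090, minus strand: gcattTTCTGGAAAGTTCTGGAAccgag
HSP90AB1 at chr6:44246960-44246987, plus strand: tttcggaccaTGACGTCAaggtgggctg
TRAP1 at chr16:3717601-3717628, minus strand: gcgcccgccgTGACGTCAccgccccgcg
CDC37 at chr19:10403591-10403618, minus strand: actagggatgTGACGTCAcacagggcgg

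The match of HSPB1 ended 174 bases before the RefSeq start, that of HSPA1A 98 bases and that of HSPA1B 97 bases before it. The 3-unit element was found in 5 of the 41 members with a window (12.2%) and in 0.557% of all 27305 genes with one, and the 2-unit form in 17 members (41.5%) and 13.96% of all genes. The cAMP response element was found in 3 members (7.32%) and in 2.03% of all genes. The stretches of HSPA8, HSP90AA1, HSPD1 and CDC37 also overlap an exon of some transcript in GENCODE release 29. The capitals of HSPD1 join 3-unit matches that overlap. A match is a run of letters and not a shown binding site.

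The libraries held 11939148 to 22426768 reads assigned to genes on the kit's strand. Levels are given as counts-per-million (CPM) scaled by TMM, a method that corrects for unequal library composition, and wherever 3 values per group are listed they stand in the order relaxin-2 replicates 1, 2 and 3, then untreated replicates 2, 3 and 4. Relaxin-2 replicate 2 and untreated replicate 2 stood apart: the library nearest to each differed from it by a chi-square over genes of 39.9 and 28.1 per degree of freedom. These nearest libraries were of the other group, untreated replicate 4 and relaxin-2 replicate 1. Relaxin-2 replicates 1 and 3 were also nearest to untreated replicate 4 (2.47 and 4.38), so the libraries did not group by treatment on this measure. In untreated replicate 2, relative to each gene's mean over the 6 libraries, the median deviation was -0.76 (log2) for 19 replication-dependent histone genes and -0.40 for 30 ribosomal protein genes, against -0.054 to 0.30 and -0.010 to 0.14 in the other 5. In relaxin-2 replicate 2, 27.0% of reads mapped to several places, against 5.31% to 6.19% in the other libraries, and the mitochondrial ribosomal RNA MT-RNR2 had 28661 CPM, against 337 to 2665 CPM in the others. The epithelial keratins KRT7, KRT8 and KRT18 were present. PAX8, a Müllerian lineage factor, had 57.8 to 70.7 CPM in relaxin-2 and 39.2 to 62.6 CPM in untreated libraries. EPCAM and MSLN reached at most 36.2 and 43.5 CPM. CDH1, FOLR1 and WT1 were low, at most 1.44, 2.86 and 4.17 CPM in any library. MUC16 was at 0 in 4 libraries and at most 0.111 CPM in the others. KRT19 and SOX17 reached at most 0.136 and 0.0909 CPM. The 6 leukocyte markers summed to at most 1.39 CPM and the 6 endothelial markers to at most 3.14 CPM in any library, with CD3E and CLDN5 at 0 in all. The 6 fibroblast markers summed to 18.0 to 18.8 CPM in relaxin-2 and 10.6 to 18.9 CPM in untreated libraries, mostly PDGFRB with DCN at 0. The 12 carcinoma and epithelial markers summed to 2368 to 2876 CPM in relaxin-2 and 1501 to 2569 CPM in untreated libraries, mostly KRT8 and KRT18. The part of these differences in the members' values was not tested.

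Over the 16740 genes that passed the filter on low counts, edgeR's quasi-likelihood test called none, its smallest adjusted p (Benjamini-Hochberg) being 0.408, so 0% of genes and 0 of the 46 tested members were called. DESeq2 also called 0 genes and 0 members. At an unadjusted p under 0.05 edgeR had 8 of the 46 tested members against 1811 of 16740 genes (10.8%). DESeq2 had 9 of the 46 against 1677 of the same 16740 genes. Of the 46 tested members 20 had a higher and 26 a lower fitted value after relaxin-2, 43.5% higher, against 47.8% of all tested genes. Their median log2 fold change was -0.025 (middle 50% from -0.12 to 0.21), and over all tested genes it was -0.015 (-0.15 to 0.24). All 3 relaxin-2 libraries lay above all 3 untreated ones in 10 members, against 10.8% of all genes, and below them in 6 members, against 10.5%. These shares come from the comparison that put HSPB1 on the list, and nothing is read from them. In bulk RNA, fewer cells of a type and less RNA per cell cannot be told apart.

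**Figure D1:**
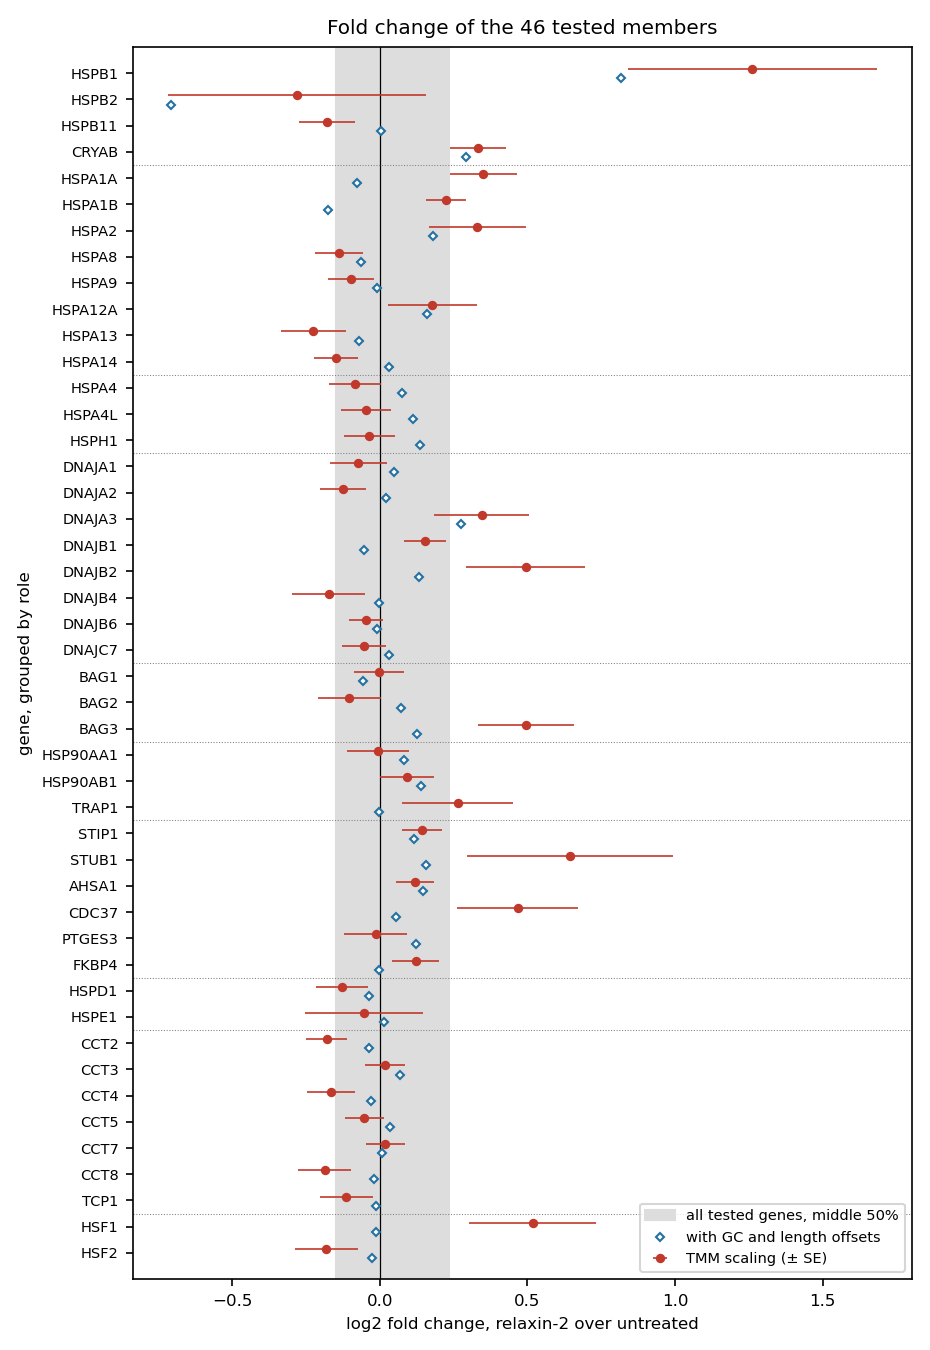
Log2 fold change of relaxin-2 over untreated libraries (x axis) for the 46 tested members, grouped by role. Red points are the edgeR fit with its standard error, open diamonds the fit with GC content and length offsets, and the grey band the middle 50% of all 16740 tested genes; HSPB1 lies farthest from 0, at 1.26 and at 0.82 with offsets.

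HSPB1, also called HSP27, is an ATP-independent chaperone that also acts on actin filaments, and it had the highest fold change of all members (chromosome 7, 76302544 to 76304295, GRCh38). It had 911, 917 and 1340 reads in the relaxin-2 libraries, against 226, 670 and 701 reads in the untreated libraries. On the CPM scale these were 50.7, 79.9 and 60.9 CPM in the relaxin-2 libraries, against 10.2, 29.4 and 40.4 CPM in the untreated libraries. The groups did not overlap, but the spread within each was wide, with untreated replicate 2 lowest of all and relaxin-2 replicate 2 highest. The means were 63.8 ± 14.8 CPM in the relaxin-2 group and 26.7 ± 15.3 CPM in the untreated group (± SD, n = 3 libraries each), a log2 fold change of 1.26 ± 0.42 (SE). Without untreated replicate 2 the value was 0.87 ± 0.15, without relaxin-2 replicate 2 it was 1.07 ± 0.48, and without both libraries numbered 2 it was 0.69 ± 0.12. HSPB1 ranked 22 of 16740 genes by fold change, and 3 of the 5993 more abundant genes (average log2 CPM from 5 upward). The exons of HSPB1 overlap no other gene, and 11.4% of the 50-base stretches of its main transcript also occur in other genes, chiefly the pseudogene HSPB1P1.

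Among the other small heat shock proteins CRYAB and HSPB11 were well expressed, and HSPB2, HSPB6 and HSPB8 were at or near 0. CRYAB, the alpha-B crystallin that shares the HSPB1 fold, had 34.8, 33.7 and 34.2 CPM in the relaxin-2 libraries, against 24.9, 28.1 and 28.5 CPM in the untreated libraries. Its groups did not overlap and were tight within themselves, with a log2 fold change of 0.33 ± 0.094. HSPB11, the intraflagellar transport protein, had 42.8, 42.9 and 42.2 CPM in the relaxin-2 libraries, against 54.0, 46.0 and 44.9 CPM in the untreated libraries. The relaxin-2 libraries were nearly equal and lay below all untreated ones (-0.18 ± 0.095), of which replicate 2 was highest. With offsets for GC content and length, described further on, its value was 0.0054 ± 0.062. HSPB2, a muscle chaperone that lies head to head with CRYAB on chromosome 11, had 69 reads in all. Its groups overlapped (-0.28 ± 0.44), and 53.9% of its exon bases lie in the readthrough gene HSPB2-C11orf52, so its count is uncertain. Under the filter on low counts, HSPB6 had 1, 3 and 1 reads in the relaxin-2 libraries, against 2, 1 and 2 reads in the untreated libraries. HSPB8 had 0 reads in every library, of 113628275 gene reads, which allows up to 0.0264 CPM by a floor of 3 counts over all libraries and covers counting error only. No difference was detectable at this depth for HSPB6 and HSPB8.

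**Figure D2:**
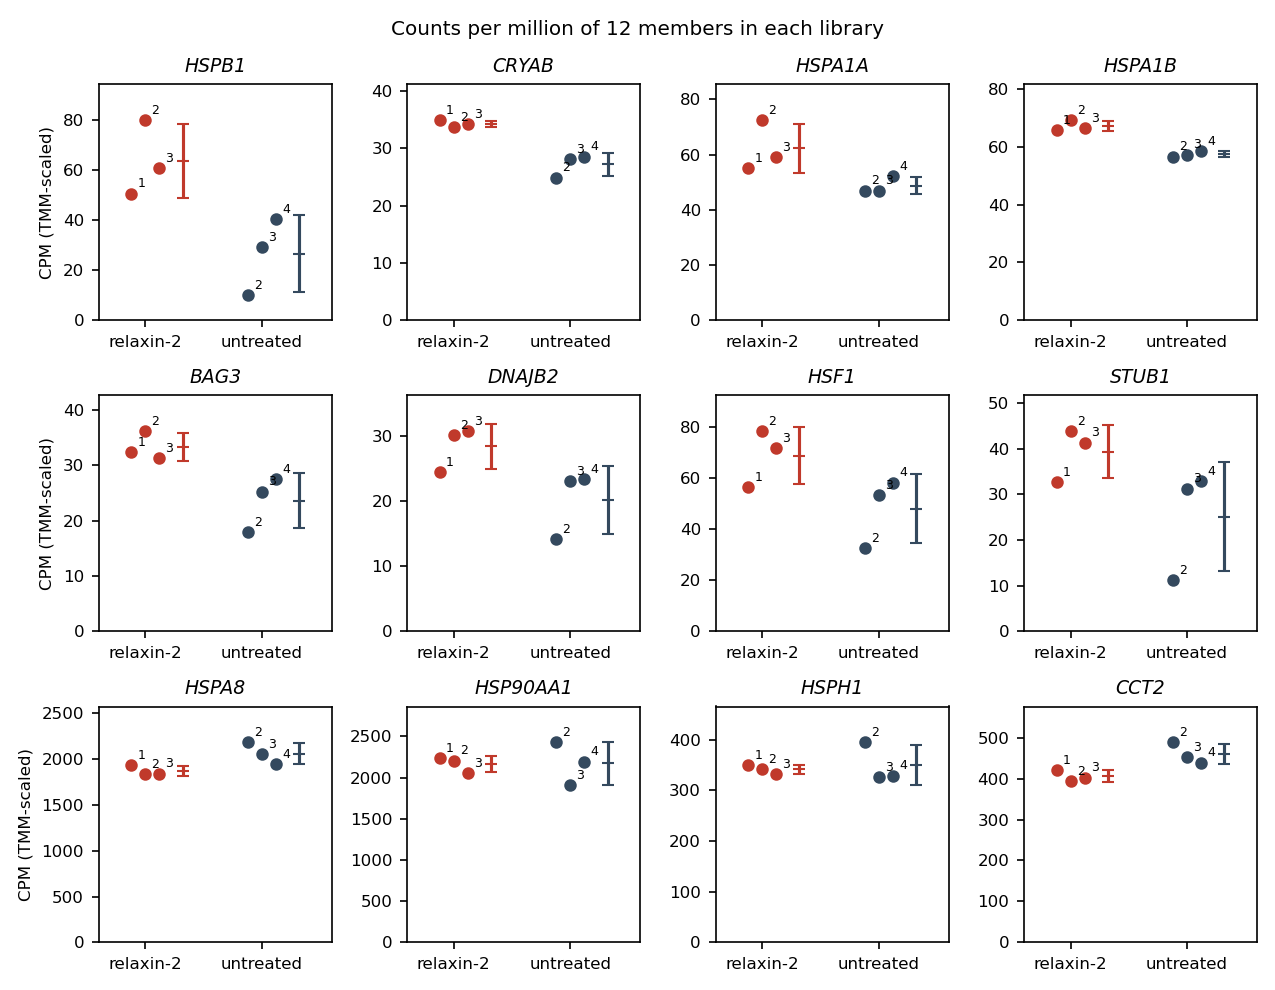
TMM-scaled CPM (y axis, from 0) of 12 members in each library, red for relaxin-2 and dark blue for untreated, numbered by replicate, with the mean ± SD beside the points. Untreated replicate 2 is the lowest library for HSPB1, CRYAB, BAG3, DNAJB2, HSF1 and STUB1 and the highest for HSPA8, HSP90AA1, HSPH1 and CCT2.

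Among the HSP70s the stress-inducible pair had higher and the constitutive gene lower fitted values, but with offsets for GC content and length, described further on, all 3 were on the lower side (-0.077, -0.18 and -0.064). HSPA1A, the inducible HSP70 of the major histocompatibility region, had 55.1, 72.3 and 59.1 CPM in the relaxin-2 libraries, against 47.0, 46.9 and 52.2 CPM in the untreated libraries. HSPA1B, its near-identical neighbour, had 65.8, 69.0 and 66.4 CPM in the relaxin-2 libraries, against 56.5, 57.2 and 58.5 CPM in the untreated libraries. Neither pair of groups overlapped, and the log2 fold changes were 0.35 ± 0.11 and 0.22 ± 0.069. Of the 50-base stretches of HSPA1A, 72.6% also occur in other genes, all of these in HSPA1B, so reads that fit both genes count as multimapping and are missing here, and the split between the pair is uncertain. HSPA8, the constitutive HSC70 that uncoats clathrin and folds new proteins, had 1929.8, 1836 and 1839 CPM in the relaxin-2 libraries, against 2179, 2049 and 1944 CPM in the untreated libraries. Every relaxin-2 library was below every untreated one (-0.14 ± 0.081). HSPA14, a ribosome-bound HSP70, had 71.7, 64.6 and 63.0 CPM in the relaxin-2 libraries, against 74.1, 74.4 and 72.4 CPM in the untreated libraries (-0.15 ± 0.076), also without overlap. The mitochondrial HSPA9 and the membrane-compartment HSPA13 had -0.097 ± 0.078 and -0.23 ± 0.11, and the low-level HSPA2 and HSPA12A 0.33 ± 0.16 and 0.18 ± 0.15, all with overlapping groups.

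The factors that reset HSP70 lay on both sides of 0. BAG3, a stress-induced exchange factor that links HSP70 to selective autophagy, had 32.4, 36.1 and 31.2 CPM in the relaxin-2 libraries, against 18.0, 25.2 and 27.5 CPM in the untreated libraries. The groups did not overlap (0.50 ± 0.16), with the untreated libraries more widely spread. Its relatives overlapped between groups: BAG1, which ties HSP70 to the proteasome, had 31.3, 31.0 and 32.1 CPM in the relaxin-2 libraries, against 31.8, 32.0 and 30.9 CPM in the untreated libraries, and BAG2, an inhibitor of the ligase STUB1, had -0.10 ± 0.11. The fitted value of BAG1 was -0.0027 ± 0.083 and changed sign with the scaling. HSPH1, the heat-inducible HSP110, had 349, 342 and 332 CPM in the relaxin-2 libraries, against 394, 326 and 329 CPM in the untreated libraries. HSPA4, the HSP110 gene with the highest level per length, had 336, 317 and 325 CPM in the relaxin-2 libraries, against 391, 322 and 324 CPM in the untreated libraries. In both genes only untreated replicate 2 stood away from the rest. The log2 fold changes of the 3 HSP110 genes HSPH1, HSPA4 and HSPA4L were -0.036, -0.084 and -0.047. All 3 turned positive without untreated replicate 2 (0.058, 0.014 and 0.035).

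Of the 8 J proteins 3 were higher and 5 lower. DNAJB1, the main heat-inducible HSP40, had 95.0, 94.2 and 99.6 CPM in the relaxin-2 libraries, against 80.8, 88.7 and 90.5 CPM in the untreated libraries. The groups did not overlap, and the log2 fold change was 0.15 ± 0.072. DNAJB2, which steers HSP70 clients to the proteasome, had 24.4, 30.1 and 30.6 CPM in the relaxin-2 libraries, against 14.1, 23.1 and 23.3 CPM in the untreated libraries, again without overlap (0.49 ± 0.20). DNAJA3 of the mitochondrion had 0.34 ± 0.16 with overlapping groups. DNAJB6, a suppressor of protein aggregation and the J protein with the highest level per length, had 221, 219 and 219.9 CPM in the relaxin-2 libraries, against 229, 220 and 233 CPM in the untreated libraries, with untreated replicate 3 lying among the relaxin-2 libraries (-0.048 ± 0.058). The rest (DNAJA1, DNAJA2, DNAJB4 and DNAJC7) ran from -0.17 to -0.055, all with overlapping groups.

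HSP90 itself differed little. HSP90AB1, the constitutive form, had 1843, 1835 and 1766 CPM in the relaxin-2 libraries, against 1823, 1514 and 1768 CPM in the untreated libraries. HSP90AA1, the stress-inducible form, had 2239, 2207 and 2057 CPM in the relaxin-2 libraries, against 2426, 1907 and 2195 CPM in the untreated libraries. In both the untreated libraries covered the range of the relaxin-2 libraries nearly or wholly, and the log2 fold changes were 0.093 ± 0.092 and -0.0055 ± 0.10. TRAP1, the mitochondrial HSP90, had 0.26 ± 0.19, and 0.050 without untreated replicate 2. The HSP90/HSP70 cochaperones were on the higher side in 5 of 6. STIP1, the bridge between HSP70 and HSP90, had 260.3, 271 and 267 CPM in the relaxin-2 libraries, against 224, 245 and 254 CPM in the untreated libraries. AHSA1, which speeds the HSP90 ATPase, had 100.1, 93.7 and 93.7 CPM in the relaxin-2 libraries, against 86.9, 89.1 and 88.6 CPM in the untreated libraries. FKBP4, an immunophilin of steroid receptor complexes, had 191, 204 and 195 CPM in the relaxin-2 libraries, against 162, 190.5 and 189 CPM in the untreated libraries, with untreated replicate 3 just under relaxin-2 replicate 1. These 3 genes did not overlap between groups and had log2 fold changes of 0.14 ± 0.068, 0.12 ± 0.065 and 0.12 ± 0.079. FKBP4 had 0.050 without untreated replicate 2 and -0.0026 with the offsets for GC content and length.

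The remaining cochaperones overlapped. STUB1, the ubiquitin ligase CHIP, had 32.7, 43.7 and 41.3 CPM in the relaxin-2 libraries, against 11.3, 31.2 and 32.8 CPM in the untreated libraries. Untreated replicate 2 was far below the rest, and the log2 fold change of 0.65 ± 0.35 was 0.29 without it. CDC37, which hands kinases to HSP90, had 145, 182 and 173 CPM in the relaxin-2 libraries, against 80.8, 135 and 146 CPM in the untreated libraries. Untreated replicate 2 was again the lowest, and the log2 fold change was 0.47 ± 0.20, or 0.24 without that library. PTGES3, the p23 protein that stabilises closed HSP90, had 737, 679.6 and 693 CPM in the relaxin-2 libraries, against 809, 611 and 711 CPM in the untreated libraries (-0.014 ± 0.11), its untreated libraries spanning more than the relaxin-2 ones.

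The chaperonins were flat or slightly lower. HSPD1, the mitochondrial HSP60, had 919.6, 847 and 867 CPM in the relaxin-2 libraries, against 1061, 913 and 905 CPM in the untreated libraries. Its groups overlapped (-0.13 ± 0.087), as did those of the lid HSPE1, which had 52.3, 47.9 and 35.9 CPM in the relaxin-2 libraries, against 60.5, 38.6 and 41.7 CPM in the untreated libraries (-0.053 ± 0.20). Of the 7 CCT subunits on the list, which fold actin and tubulin, 2 were higher and 5 lower, with a median of -0.11 and a range from -0.19 to 0.018. CCT2 had 421, 394 and 402 CPM in the relaxin-2 libraries, against 488, 453 and 439 CPM in the untreated libraries. CCT4 had 337, 332 and 339.6 CPM in the relaxin-2 libraries, against 418, 365 and 348 CPM in the untreated libraries. CCT8 had 308, 277 and 295 CPM in the relaxin-2 libraries, against 376, 312 and 313 CPM in the untreated libraries. In these 3 subunits every relaxin-2 library lay below every untreated one, with log2 fold changes of -0.18 ± 0.069, -0.17 ± 0.080 and -0.19 ± 0.090. CCT3, the subunit with the highest level per length, had 488, 477 and 483 CPM in the relaxin-2 libraries, against 457, 505 and 468 CPM in the untreated libraries. Its groups overlapped, and the fitted values of CCT3 and CCT7 changed sign with the scaling.

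The transcription factors of the response had fitted values of opposite sign. HSF1, the master factor, had 56.3, 78.2 and 71.8 CPM in the relaxin-2 libraries, against 32.6, 53.3 and 58.2 CPM in the untreated libraries. Its groups overlapped through relaxin-2 replicate 1 and untreated replicate 4, and the log2 fold change was 0.52 ± 0.22. HSF2, its developmental relative, had 43.4, 40.8 and 37.4 CPM in the relaxin-2 libraries, against 51.5, 43.2 and 43.0 CPM in the untreated libraries, with overlapping groups and -0.18 ± 0.11.

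Whether a member stood higher or lower went with the base composition of its transcripts. Transcript GC content of the tested members ran from 37.0% in BAG2 to 63.8% in STUB1, and it correlated with their log2 fold change with Pearson's r = 0.78 and Spearman's rho = 0.77 over 46 genes that share the same 6 libraries. Over the 16673 tested genes with a GC value the figures were r = 0.71 and rho = 0.73. Of the 21 members above the median GC content of all tested genes (48.7%) 18 were higher and 3 lower, and of the 25 members at or below it 2 were higher and 23 lower. The same split over all genes was 6589 higher and 1747 lower above that median, and 1390 higher and 6947 lower at or below it. The pattern did not keep to the groups. The rho between a member's deviation and its GC content was 0.27, 0.86 and 0.87 in relaxin-2 replicates 1, 2 and 3, and -0.90, -0.13 and 0.37 in untreated replicates 2, 3 and 4, so untreated replicate 4 was above relaxin-2 replicate 1. Untreated replicate 2 had the members above the GC median at a median deviation of -0.29 and the others at 0.20.

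Without relaxin-2 replicate 2 the median of the members was -0.023 and 22 of 46 were higher, with HSPA1A at 0.23, BAG3 at 0.44 and DNAJB2 at 0.45. Without untreated replicate 2 the median was 0.031, and 27 of 46 were higher. CRYAB then had a log2 fold change of 0.27, HSPA1A 0.32, HSPA1B 0.21, BAG3 0.33, DNAJB2 0.29, DNAJB1 0.11 and HSF1 0.30. On the lower side HSPA8 had -0.096, HSPB11 -0.092, HSPA14 -0.14, CCT2 -0.14, CCT4 -0.084 and CCT8 -0.092.

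Offsets were then used that take each library's smooth trend on GC content and length out of the fit. That trend was fitted over the tested genes, members included, so a rho near 0 is largely built in. Any difference between the groups that follows GC content or length is taken out with it. With these offsets rho over the members was 0.078. Their median log2 fold change was 0.027, with the middle 50% from -0.019 to 0.12. HSPB1 had 0.82 ± 0.17 in that fit. By fold change it then ranked 42 of all 16740 tested genes and 4 of the same 5993 abundant genes. CRYAB had 0.29 ± 0.066 and DNAJA3 0.27 ± 0.10. Most of the other large values moved toward 0: BAG3 to 0.12, DNAJB2 to 0.13, STUB1 to 0.16, CDC37 to 0.054, HSF1 to -0.014 and TRAP1 to -0.0039. HSPA1A and HSPA1B turned to -0.077 and -0.18, and DNAJB1 to -0.052. Not all moved this way: AHSA1 went from 0.12 to 0.15 ± 0.050. STIP1 changed little, from 0.14 to 0.12 ± 0.040. The HSP110 genes HSPH1, HSPA4 and HSPA4L turned to 0.14, 0.076 and 0.11. On the lower side CCT2, CCT4 and CCT8 had -0.036, -0.030 and -0.020, and HSPA8 had -0.064. HSPA14 turned to 0.032. In all, 27 of 46 members were then higher, and the sign differed from the fit without offsets in 19 members. HSPB2 had -0.71 ± 0.35 with its 69 reads. This fit also called 0 genes and 0 members.

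**Figure D3:**
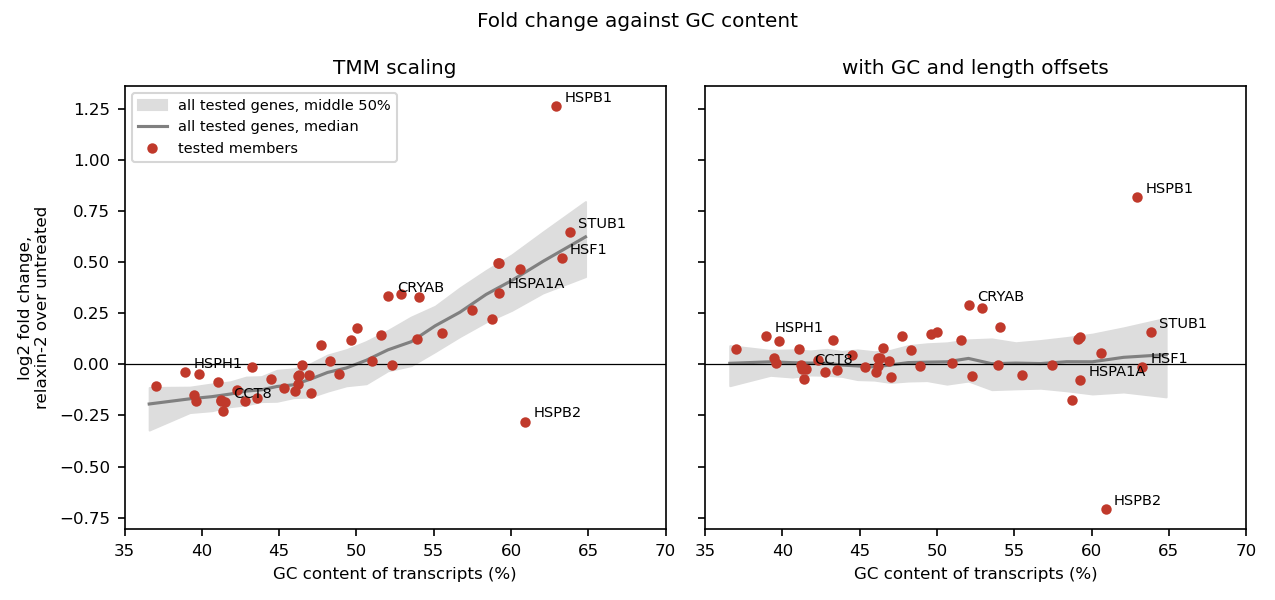
Log2 fold change of relaxin-2 over untreated (y axis) against the mean GC content of a gene's transcripts in percent (x axis), without offsets (left) and with GC content and length offsets (right). Red points are the 46 tested members, and the grey line and band are the median and middle 50% of all tested genes in bins of GC content; the members follow the rising band on the left, while on the right HSPB1 at 0.82 remains the highest member.

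Fold changes were also set beside the promoter matches shown at the start. Of the 39 members that were tested and had a window, the 5 with a 3-unit heat shock element had a median log2 fold change of -0.048 (1 higher, 4 lower), and the 34 without one had -0.025 (15 higher, 19 lower). With the 2-unit element 5 were higher and 10 lower, and without it 11 were higher and 13 lower. Of all 50 tested genes with the 3-unit element 40% were higher, against 49.5% of those without it. For the 2-unit element these shares were 46.7% and 49.8%. The 3 members with a cAMP response element were on the higher side, and of the 36 without it 13 were higher and 23 lower; of all 390 tested genes with that element 49.7% were higher, and of those without it 49.4%. HSP90AB1 was at 0.093, TRAP1 at 0.26 and CDC37 at 0.47, and with the offsets their values were 0.14, -0.0039 and 0.054.

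Together the members made up 1.43% to 1.53% of gene reads in the relaxin-2 libraries and 1.48% to 1.63% in the untreated libraries. To compare levels between genes, CPM was divided by the length in kilobases (kb) of a gene's principal transcript (the one GENCODE ranks first by the APPRIS tag). By this length HSPA8 was highest, with 759 ± 21.6 CPM per kb in relaxin-2 libraries and 835 ± 47.7 in untreated libraries (mean ± SD, n = 3 each). HSP90AB1 followed, with 679 ± 15.8 CPM per kb in relaxin-2 libraries and 636 ± 61.6 in untreated libraries. HSP90AA1 had 642 ± 28.8 CPM per kb in relaxin-2 libraries and 644 ± 77.0 in untreated libraries, which differed from HSP90AB1 by less than the sum of their SDs within each group. Next came HSPD1 at 374 and PTGES3 at 368 CPM per kb over all 6 libraries, which did not differ beyond their spread. These levels leave out reads that fit several genes: 24.8% of the 50-base stretches of HSPD1, 18.8% of HSP90AB1, 18.2% of HSP90AA1 and 15.4% of HSPA8 also occur in other genes.

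The CCT subunits, which enter their ring in equal numbers, lay between 111 (TCP1) and 223 CPM per kb (CCT3). The inducible HSP70 pair was far below HSPA8, though reads that fit both genes of the pair are missing: HSPA1A had 25.04 ± 3.62 CPM per kb in relaxin-2 libraries and 19.6 ± 1.22 in untreated libraries, and HSPA1B 26.6 ± 0.681 CPM per kb in relaxin-2 libraries and 22.8 ± 0.389 in untreated libraries. Reads of HSPA8 outnumbered those of HSPA1A by 30.5 ± 4.83 to 1 in relaxin-2 libraries and by 42.4 ± 4.69 to 1 in untreated libraries, with reads that fit both HSPA1A and HSPA1B missing from the count of HSPA1A. HSPB1 had 70.2 ± 16.3 CPM per kb in relaxin-2 libraries and 29.3 ± 16.8 in untreated libraries, and its reads relative to CRYAB were 1.46, 2.37 and 1.78 to 1 in the relaxin-2 libraries, against 0.409, 1.05 and 1.42 to 1 in the untreated libraries. The factors themselves were low, HSF1 at 27.3 and HSF2 at 17.0 CPM per kb. With the union of all exons as length, HSP90AB1 was the highest member at 590 CPM per kb, above HSP90AA1 at 414 and HSPA8 at 405, and the highest gene of a role changed for J proteins (DNAJA1), BAG factors (BAG2), CCT subunits (CCT4) and heat shock factors (HSF2).

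**Figure D4:**
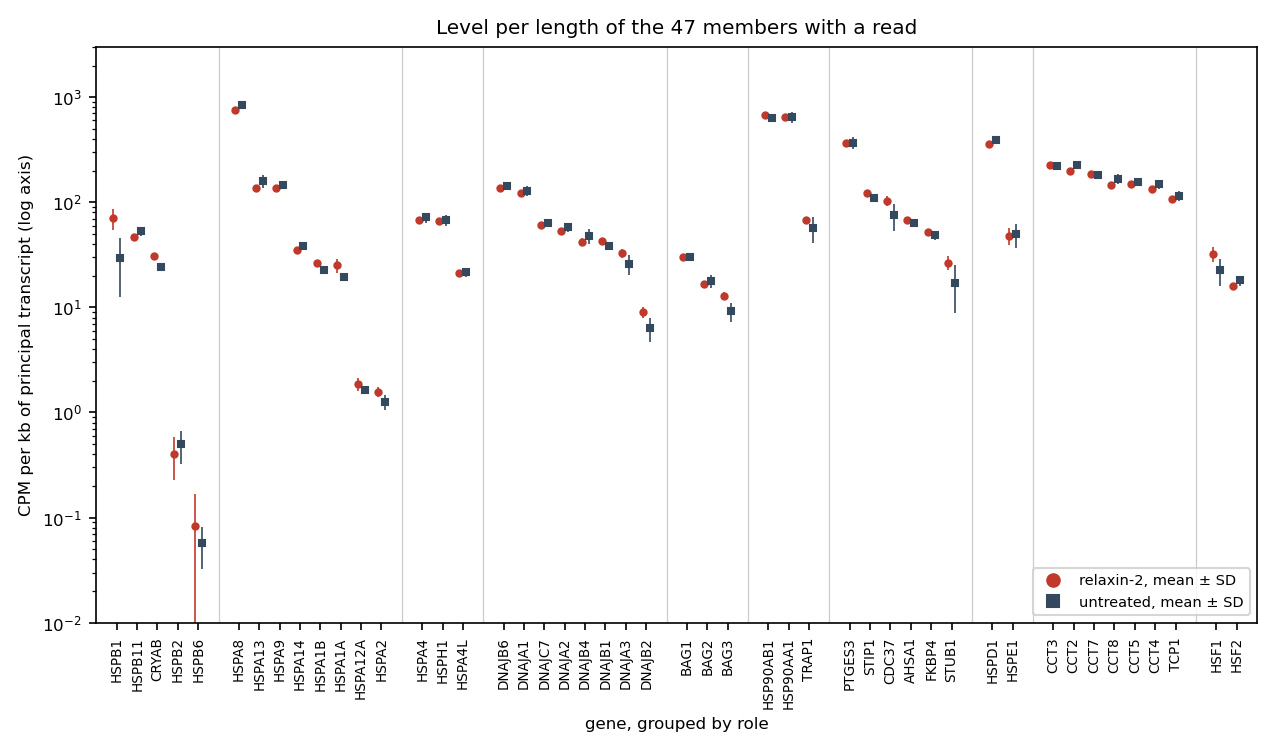
Level per length (y axis, log scale, CPM per kb of principal transcript) of the 47 members with at least 1 read, grouped by role in the order small heat shock proteins, HSP70, HSP110, J proteins, BAG factors, HSP90, cochaperones, mitochondrial chaperonin, CCT and heat shock factors. Red circles are relaxin-2 and dark squares untreated means, with SD over 3 libraries; bars that reach below 0 run off the axis, and HSPA8, HSP90AB1 and HSP90AA1 stand highest.

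Other genes of the same machinery that are not on the list gave no call either. Of 43 chaperone and cochaperone genes 37 were tested, with 17 higher, 20 lower and 0 called (median log2 fold change -0.031, or 0.076 with the offsets). HSF4, a heat shock factor of the lens, had the highest value in that list, 0.92 ± 0.26, and DNAJB14, a J protein of the endoplasmic reticulum membrane, the lowest, -0.24 ± 0.10. Neither HSPB7 nor HSPA7 had a read.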

How the data were processed

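Extraction was with TRIzol and the kit kept strand information, per the labels' protocols. The authors deposited raw gene counts, with 3 columns per library (ignoring strand, forward, reverse) and a merged table, made with STAR on hg38 per the submitters' processing notes, which give no version. The reverse column was used: its gene reads exceeded those of the forward column by 17.8 to 19.8 times, and it equalled the merged table at all 24635 shared IDs. Lines that name no gene were kept out, among them 5.31% to 27.0% of reads as multimapping and 17.5% to 32.0% as lying in no exon on that strand. Annotation was GENCODE release 29 (GRCh38, 57433 of 58037 IDs matched).

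After edgeR's default filter on low counts and TMM scaling, 1 model with treatment as its only term was fitted over all genes in edgeR 4.0.16 on R 4.3.3. Its quasi-likelihood test was two-sided, with calls at a Benjamini-Hochberg p under 0.05. A standard error is the log2 fold change divided by the root of F. Deviations and correlations used log2 CPM with a prior count of 2. The fit was tested on simulated counts. Alternatives were DESeq2 1.42.0, other scalings, filters and count columns, libraries left out, the replicate number as a block, and offsets from natural splines (4 knots) on mean transcript GC content and log length, which were known for 99.6% of tested genes. Even the 2 most similar libraries, relaxin-2 replicate 1 and untreated replicate 4, differed beyond sampling noise (chi-square per degree of freedom 2.47).

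The members and lists were chosen with earlier results of these data known. Values per library are given for HSPB1, members whose groups do not overlap, the member with the highest level per length in each role, 6 stress-inducible genes, both heat shock factors and members under the filter. Those of STUB1, CDC37 and HSPE1 were added after their values were seen. At these depths the median standard error was 0.091 over the members and 0.16 over all tested genes.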

Additional observations from a re-analysis of the deposited data

How the results depend on the processing

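The log2 fold change of HSPB1 ran from 0.87 to 1.69 when each library was left out in turn, a range whose sign is fixed by groups that do not overlap. It was 0.69 when both libraries numbered 2 were left out and 0.82 with the offsets for GC content and length. The median of the members ran from -0.064 to 0.031 over the libraries left out. It was 0.052 when both libraries numbered 2 were left out and 0.027 with the offsets. Members on the higher side numbered 21 to 27 of 46 over the libraries left out, and 31 when both numbered 2 were. Calls over all genes numbered 0 to 3 over the libraries left out (3 when untreated replicate 2 was, no member among them). They numbered 3 when both libraries numbered 2 were left out (HSPB1 among them, adjusted p = 0.0367 in edgeR). With no filter on low counts they numbered 120 of 32407 tested genes (HSPB1 among them, adjusted p = 0.0150 in edgeR). HSPB1 was listed for its value here, so these calls are not independent evidence. Of the 45 other tested members, the sign differed in 11 when untreated replicate 2 was left out, in 13 when both libraries numbered 2 were, and in 19 with the offsets; the cause was not tested.

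Only the numbers 2 and 3 occur in both groups, and nothing in the labels says that they pair libraries. The deviations of same-numbered libraries from their group means correlated at -0.33 and 0.12 over genes. With the replicate block on these 4 libraries edgeR called 978 genes, against 0 on the same 4 libraries without the block (a fit chosen after seeing the data). With treatment and block both fitted on 4 libraries, few degrees of freedom were left to estimate the spread, so nothing is read from these calls. The members among them were HSPB1 (1.99 ± 0.31), STUB1, CDC37 and HSF1. Their transcript GC content was high, 60.6% (CDC37) to 63.8% (STUB1), and each was lowest in untreated replicate 2, one of the libraries used. The part of this in the calls was not tested. Genes with close copies (HSPA1A, HSPA1B, HSPD1, the HSP90 genes) are undercounted by an unknown amount. The counts of DNAJB6 and HSPE1 share this limit, as 30.9% and 27.2% of their 50-base stretches also occur in other genes. In HSPA1B, 36.5% of the exon bases also lie in another gene on the same strand.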

Other observations

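Chaperones of the endoplasmic reticulum, a set apart from the cytosolic ones, gave no call either. Of 14 such genes 6 were higher and 8 lower after relaxin-2 (edgeR, 0 called over all genes), with a median log2 fold change of -0.027 and of 0.038 with the GC content and length offsets. SDF2L1, a cofactor of the chaperone BiP, had the highest value at 0.69 ± 0.26 (SE), and DNAJB11, a J protein of the same compartment, the lowest at -0.22 ± 0.076. The 3 relaxin-2 libraries lay above the 3 untreated ones in 4 of the 14 genes, against 10.8% of all tested genes, and below them in 2, against 10.5%.

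The balance between the HSP90 forms was also read as a ratio in each library. Reads of HSP90AA1 per read of HSP90AB1 were 1.21, 1.20 and 1.16 in relaxin-2 replicates 1, 2 and 3, against 1.33, 1.26 and 1.24 in untreated replicates 2, 3 and 4. The groups did not overlap, and this ratio was picked after its values were seen.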
